A study of Mus musculus with 12 samples.

Results

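The comparison described here is the genotype by tamoxifen interaction in the mouse left ventricle, that is, how far the effect of tamoxifen on each gene differed between ATF6-MER transgenic (TG) hearts and those of non-transgenic (NTG) littermates. For each gene it is the change from vehicle to tamoxifen in TG minus the same change in NTG, on log2 intensities. It uses all 12 arrays of the series, 1 per heart, and was computed a second time on 11 arrays, without the array labelled NTG tamoxifen 1. The mice were male C57BL/6 of about 30 weeks, and the label of TG tamoxifen 1 gives 40 weeks. The 4 groups of 3 mice were TG given tamoxifen, TG given vehicle, NTG given tamoxifen and NTG given vehicle. Groups follow the sample titles. The labels used here name no dose, duration or vehicle, and no promoter of the transgene.

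ATF6 is a membrane protein of the endoplasmic reticulum (ER). When unfolded proteins accumulate in the ER, it moves to the Golgi, is cleaved there, and its cytosolic part enters the nucleus as a transcription factor that binds ER stress response elements. It is 1 of 3 branches of the unfolded protein response, beside IRE1 with its target Xbp1 and PERK with its target Atf4. In ATF6-MER the transcription factor is fused to a mutant estrogen receptor domain that is held inactive until tamoxifen binds it. The NTG tamoxifen group measures what the drug does without the fusion, and the TG vehicle group what the fusion does without the drug. The interaction asks for which genes the effect of the drug differed between TG and NTG. Such a difference can come from a drug effect in TG, in NTG or in both.

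Esr1, the estrogen receptor gene whose ligand-binding domain the fusion carries, served as the check of the labels. On the log2 scale it read 16.66, 16.84 and 17.15 in TG tamoxifen and 18.25, 17.96 and 17.89 in TG vehicle. It read 8.70, 7.15 and 7.27 in NTG vehicle. In NTG tamoxifen it read 10.88 and 9.89 on 2 arrays, and 17.72 on the array labelled NTG tamoxifen 1, a level within the TG range that goes against its label. Counts are therefore given with this array (12 arrays) and without it (11 arrays). For most genes whose value is given with 11 arrays, the text says whether it also passed with 12. Where the text does not say so, a pass with 12 arrays should not be assumed. TG vehicle 3 is titled vehicle while its treatment field says tamoxifen. Over the genes tested, the main axis of variation between arrays (first principal component, 42.4% of variance) placed it at -0.219. TG vehicle 1 and 2 lay at -0.324 and 16.9, and TG tamoxifen at -61.6, -57.2 and -60.3, so it lay with the arrays of its title. When TG vehicle 3 was moved to TG tamoxifen, 0 genes passed the interaction in limma with either set of arrays, against 1988 and 2363 genes at an unadjusted p under 0.05.

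The arrays also differed in a sign of RNA quality. The 3' probe set of the beta-actin control, divided by its 5' probe set, gave 1.81 ± 0.07 (SD, n = 3) for TG tamoxifen and 1.50 ± 0.18 for TG vehicle. For NTG it gave 1.89 ± 0.10 with tamoxifen and 2.28 ± 0.16 with vehicle. It was thus higher with tamoxifen in TG and lower with tamoxifen in NTG, the same contrast as the interaction itself. With this ratio as a covariate limma called 0 genes with 12 arrays (812 at an unadjusted p under 0.05) and 44 with 11 arrays, 32 higher and 12 lower. Of the genes called without the covariate, 1555 of 1593 kept their sign with 12 arrays and 2502 of 2546 with 11. The ratio differed between the groups, so this fit cannot separate the 2. The counts under the beta-actin covariate are given beside the pathway lists below. The like ratio of Gapdh was 0.764 ± 0.017 for TG tamoxifen and 0.769 ± 0.016 for TG vehicle. For NTG it was 0.814 ± 0.044 with tamoxifen and 0.957 ± 0.063 with vehicle. Median array intensities before normalization ran from 648 to 834. The 10 ventricular cardiomyocyte markers tested had the largest summed intensity of the 12 marker lists on all arrays, from 2423080 to 2944240, and Myl2, the ventricular myosin light chain, read between 18.42 and 18.63 on every array. In such bulk tissue, fewer cells of a type and less RNA per cell cannot be told apart.

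Of 11166 genes tested, 1593 passed the interaction at an adjusted p under 0.05 with 12 arrays, or 14.3% of those tested. With 11 arrays 2546 passed, or 22.8%. Positive values, where tamoxifen raised the gene more or lowered it less in TG than in NTG, made up 838 calls (7.5% of genes tested) with 12 arrays and 1317 (11.8%) with 11. Negative values made up 755 (6.76%) and 1229 (11%). The 2 sets shared 1531 genes, all with the same sign, which is 96.1% of the 12-array calls and 60.1% of the 11-array calls. A further 1015 genes passed with 11 arrays alone and 62 with 12 arrays alone. The median interaction over all genes was -0.07 with either set. When arrays were centred on their medians in place of quantile normalization it was 0.18 with 12 arrays and 0.19 with 11, and the split of calls moved to 1518 higher and 335 lower, and to 1923 higher and 611 lower. The share of higher against lower calls therefore depends on the scaling.

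The 2 drug effects inside the contrast sort the 11-array calls into kinds. The TG effect passed in 3270 genes (29.3%), of which 1438 (12.9%) were higher and 1832 (16.4%) lower, and the NTG effect in 419 (3.75%), of which 81 (0.725%) were higher and 338 (3.03%) lower. With all 12 arrays the TG effect passed in 2774 genes (24.8%), 1166 higher (10.4%) and 1608 lower (14.4%), and the NTG effect in 482 (4.32%), 73 higher (0.654%) and 409 lower (3.66%). Among the 2546 interaction calls, 764 genes rose in TG with an NTG effect that missed the threshold, and 1000 fell in TG in the same way. Another 163 fell in NTG with no call in TG, and 42 rose in NTG with no call in TG. Both effects passed in opposite directions in 104 genes that rose in TG and fell in NTG and in 12 that fell in TG and rose in NTG. In 283 higher and 172 lower calls neither effect passed alone, and in 6 both passed in the same direction. A missed threshold in NTG, with 2 arrays left in its tamoxifen group, does not show that the drug had no effect there.

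**Figure D1:**
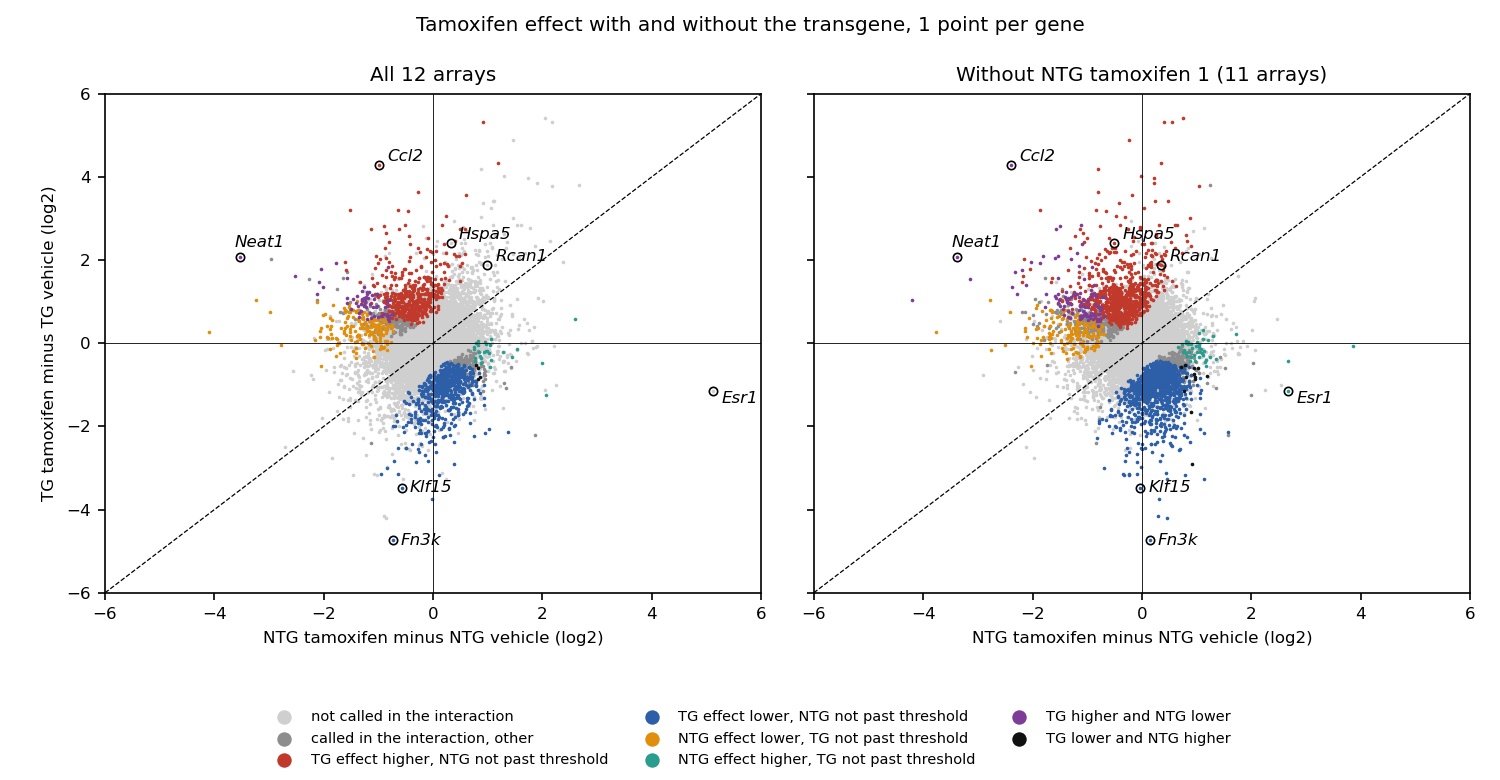
The change from vehicle to tamoxifen in NTG hearts (x axis, log2) against the same change in TG hearts (y axis, log2), 1 point per gene, with all 12 arrays (left) and without the array labelled NTG tamoxifen 1 (right). Colours mark genes called in the interaction by which drug effect also passed; the dashed diagonal is equal change in both genotypes. Hspa5 and Rcan1 lie nearer the diagonal on the left (interaction 2.09 and 0.89) than on the right (2.91 and 1.53), and Esr1 and Neat1 lie far to the right and left, with NTG changes of 2.68 and -3.39 with 11 arrays.

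The ER chaperones are the best-known targets of ATF6 and were tested as a list of 26 genes. With 11 arrays 13 of them passed, all higher, beside 11.8% of all genes tested, and with 12 arrays 0 passed. The median interaction of the list was 0.90 with 11 arrays and 0.52 with 12. The TG effect had a median of 1.39 and the NTG effect one of 0.04 with 11 arrays. Median centring raised the calls to 18 with 11 arrays and 2 with 12. With the beta-actin covariate 5 passed with 11 arrays.

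Hspa5 encodes BiP, the main Hsp70 chaperone of the ER lumen. It read 18.47, 18.47 and 18.37 in TG tamoxifen, 16.39, 15.76 and 15.94 in TG vehicle, 15.65 and 15.49 in NTG tamoxifen 2 and 3, and 15.95, 16.08 and 16.19 in NTG vehicle. TG tamoxifen stood above every other array, TG and NTG vehicle overlapped, and NTG tamoxifen 2 and 3 lay just below both. The array labelled NTG tamoxifen 1 read 18.05, closer to TG tamoxifen than to its own group. Its interaction was 2.91 ± 0.26 (SE; 95% interval 2.33 to 3.50, 7.53-fold, adjusted p = 0.000201) with 11 arrays and 2.09 ± 0.73 (0.48 to 3.69, adjusted p = 0.0747) with 12.

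Dnajb11, an Hsp40 cochaperone of BiP, had the smallest adjusted p of the genes named here. It read 15.51, 15.49 and 15.45 in TG tamoxifen, while the other TG and NTG arrays read between 11.47 and 12.24, apart from 15.63 on the array labelled NTG tamoxifen 1. The interaction was 3.79 ± 0.22 (13.8-fold, adjusted p = 7.67e-05) with 11 arrays and 2.45 ± 1.13 (adjusted p = 0.158) with 12, so that 1 array of the 12 set whether it passed. Dnajc3, another ER cochaperone that also inhibits PERK, gave 3.18 ± 0.27 (adjusted p = 0.000169) and 2.33 ± 0.75 (adjusted p = 0.057). Hsp90b1, the ER Hsp90 also called GRP94, gave 2.78 ± 0.30 with 11 arrays. Calr, the calcium-binding lectin chaperone calreticulin, gave 2.07 ± 0.23. Both passed with 11 arrays, at adjusted p values of 0.00057 and 0.00072, and missed with 12, at 0.198 and 0.0852.

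The protein disulfide isomerases form and rearrange disulfide bonds in new secretory proteins. Of 18 genes tested with the ERO1 oxidases that recharge them, 8 were called higher with 11 arrays and 4 with 12, and 0 were called lower. With the beta-actin covariate 2 passed with 11 arrays. Over all genes tested 11.8% were called higher with 11 arrays and 7.5% with 12. P4hb, the classical disulfide isomerase, read 18.22, 18.03 and 17.98 in TG tamoxifen and between 14.48 and 15.47 elsewhere, except for 18.38 on the array labelled NTG tamoxifen 1. Its interaction was 3.21 ± 0.28 (adjusted p = 0.000169) with 11 arrays and 2.19 ± 0.89 (adjusted p = 0.112) with 12. Pdia4 rose in both genotypes with 11 arrays, by 3.79 in TG and by 1.25 in NTG, and its interaction of 2.54 ± 0.36 (adjusted p = 0.00182) measures how much more it rose in TG. With 12 arrays it missed, at 1.12 ± 1.22 (adjusted p = 0.556). Pdia3 gave 1.69 ± 0.24 (adjusted p = 0.00168) with 11 arrays and 0.96 ± 0.65 (adjusted p = 0.33) with 12.

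ER-associated degradation, the route by which misfolded proteins leave the ER for the proteasome, had 9 of 26 genes called higher and 1 lower with 11 arrays, and 4 higher and 0 lower with 12. With the beta-actin covariate 1 passed. Over all genes tested, 11.8% were called higher and 11% lower with 11 arrays, and 7.5% and 6.76% with 12. Derl3, a channel component of that route, read 15.27, 14.99 and 15.01 in TG tamoxifen and 10.48, 11.18 and 11.68 in TG vehicle. NTG tamoxifen 2 and 3 read 10.71 and 11.13, NTG vehicle 10.51, 10.66 and 10.92, and the array labelled NTG tamoxifen 1 read 15.47. Its interaction was 3.75 ± 0.41 (adjusted p = 0.000636) with 11 arrays and 2.24 ± 1.32 (adjusted p = 0.26) with 12. Sel1l, the adaptor of the Hrd1 ubiquitin ligase, gave 1.91 ± 0.23 (adjusted p = 0.001) with 11 arrays and missed with 12, at 1.09 ± 0.72 (adjusted p = 0.316). Vcp, the ATPase that pulls substrates out of the membrane, passed with both sets, at 1.94 ± 0.30 (adjusted p = 0.00242) and 1.50 ± 0.46 (adjusted p = 0.049).

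Protein entry into the ER and its first modifications formed a list of 36 genes, with 11 called higher and 1 lower with 11 arrays and 7 higher and 0 lower with 12. With the beta-actin covariate 0 passed. The shares of all genes tested were 11.8% higher and 11% lower with 11 arrays, and 7.5% and 6.76% with 12. Gfpt1, the first enzyme of hexosamine synthesis, was 2.01 ± 0.25 (adjusted p = 0.00111) with 11 arrays and 1.85 ± 0.27 (adjusted p = 0.00742) with 12. It rose in TG by 1.01 and fell in NTG by a like amount, both called. Ssr3, of the translocon-associated complex, gave 2.29 ± 0.27 with 11 arrays, and Spcs3, of the signal peptidase, gave 1.45 ± 0.23. Both passed with both sets.

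Of the stress sensors and the factors they activate, 8 of 24 were called higher and 1 lower with 11 arrays, and 4 higher and 0 lower with 12. With the beta-actin covariate 0 passed. Among all genes tested, 11.8% were called higher and 11% lower with 11 arrays, and 7.5% and 6.76% with 12. Atf4 read 15.75, 15.30 and 15.95 in TG tamoxifen against 13.92, 13.11 and 13.77 in TG vehicle, and 12.28 and 12.13 in NTG tamoxifen 2 and 3 against 13.31, 13.20 and 13.17 in NTG vehicle. TG tamoxifen lay above and NTG tamoxifen 2 and 3 below all other arrays. Its interaction was 3.08 ± 0.35 (adjusted p = 0.00072) with 11 arrays and 2.49 ± 0.59 (adjusted p = 0.0216) with 12. Ddit3, the factor CHOP downstream of ATF4, and Eif2ak3, which encodes PERK itself, passed with both sets, at 2.76 ± 0.36 and 2.33 ± 0.31 with 11 arrays and 2.21 ± 0.56 and 2.00 ± 0.40 with 12. Xbp1, the factor of the IRE1 branch, gave 0.94 ± 0.26 (adjusted p = 0.0266) with 11 arrays and 0.33 (adjusted p = 0.716) with 12.

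Atf6 itself was the sensor called lower. Its probe set read 12.11, 12.00 and 12.16 in TG tamoxifen, 13.26, 12.97 and 13.19 in TG vehicle, 13.41 and 13.47 in NTG tamoxifen 2 and 3, and 13.74, 13.55 and 13.62 in NTG vehicle. TG tamoxifen lay below every other array, and 12.67 on the array labelled NTG tamoxifen 1 was the next lowest. The interaction was -0.86 ± 0.21 (adjusted p = 0.0162) with 11 arrays and -0.60 ± 0.29 (adjusted p = 0.181) with 12. Whether this probe set reads the fusion transcript is not given in the sources used here. The call was lost in 8 of 26 alternatives to the 11-array result, median centring among them. Further probe sets of Atf6 above the filter had the same sign and missed the threshold in limma over all probe sets tested. With 11 arrays they gave -0.79 (adjusted p = 0.224) and -0.54 (adjusted p = 0.301).

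Of 22 genes of amino acid synthesis and transport that ATF4 controls, 6 were called higher and 2 lower with 11 arrays. With 12 arrays 2 were called each way, and the beta-actin covariate left 1 with 11 arrays. Among all genes tested, 11.8% were called higher and 11% lower with 11 arrays, and 7.5% and 6.76% with 12. The lower calls, and both directions with 12 arrays, were near these shares. Mthfd2, a mitochondrial enzyme of folate metabolism, read 13.38, 13.08 and 13.17 in TG tamoxifen and between 8.76 and 10.11 elsewhere, except 12.36 on the array labelled NTG tamoxifen 1. It gave 3.99 ± 0.41 (adjusted p = 0.00045) with 11 arrays and 3.15 ± 0.80 (adjusted p = 0.0263) with 12. Psat1, of serine synthesis, gave 4.03 ± 0.36 (adjusted p = 0.0002) and 2.72 ± 1.14 (adjusted p = 0.122). Vldlr, a lipoprotein receptor on the same list, ran the other way, at -2.00 ± 0.30 (adjusted p = 0.00222) and -1.62 ± 0.43 (adjusted p = 0.0303).

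Rcan1, the inhibitor of the phosphatase calcineurin that the series title calls MCIP1, read 15.64, 15.95 and 15.29 in TG tamoxifen, 13.76, 13.35 and 14.14 in TG vehicle, 13.05 and 13.46 in NTG tamoxifen 2 and 3, and 12.83, 12.60 and 13.28 in NTG vehicle. TG tamoxifen stood above all of these, and the array labelled NTG tamoxifen 1 read 15.17, just below it. The interaction was 1.53 ± 0.39 (95% interval 0.66 to 2.40, 2.89-fold, adjusted p = 0.0202) with 11 arrays. With 12 arrays it was 0.89 ± 0.64 (-0.52 to 2.30, adjusted p = 0.361). The 11-array call was lost in 5 of 26 alternatives, among them either control ratio as a covariate and the removal of NTG tamoxifen 2. A further probe set of Rcan1 above the filter had the same sign and missed the threshold in limma over all probe sets tested. It gave 1.42 (adjusted p = 0.0800) with 11 arrays and 0.60 (adjusted p = 0.658) with 12. Of the 15 genes of the calcineurin and NFAT list 2 were called higher and 3 lower with 11 arrays, beside 11.8% and 11% of all genes tested. With 12 arrays 1 was called higher and 2 lower, beside 7.5% and 6.76% of all genes tested, and with the beta-actin covariate 0 passed. Ppp3cc and Nfatc1, a catalytic subunit of calcineurin and a transcription factor that it activates, were called lower with both sets, at -1.70 ± 0.27 and -1.25 ± 0.29 with 11 arrays. Nfatc1 took the opposite sign when its probe sets were averaged. A further Ppp3cc probe set gave 0.10 with 11 arrays, and further Nfatc1 probe sets gave -0.41 and 0.43. None of these passed.

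**Figure D2:**
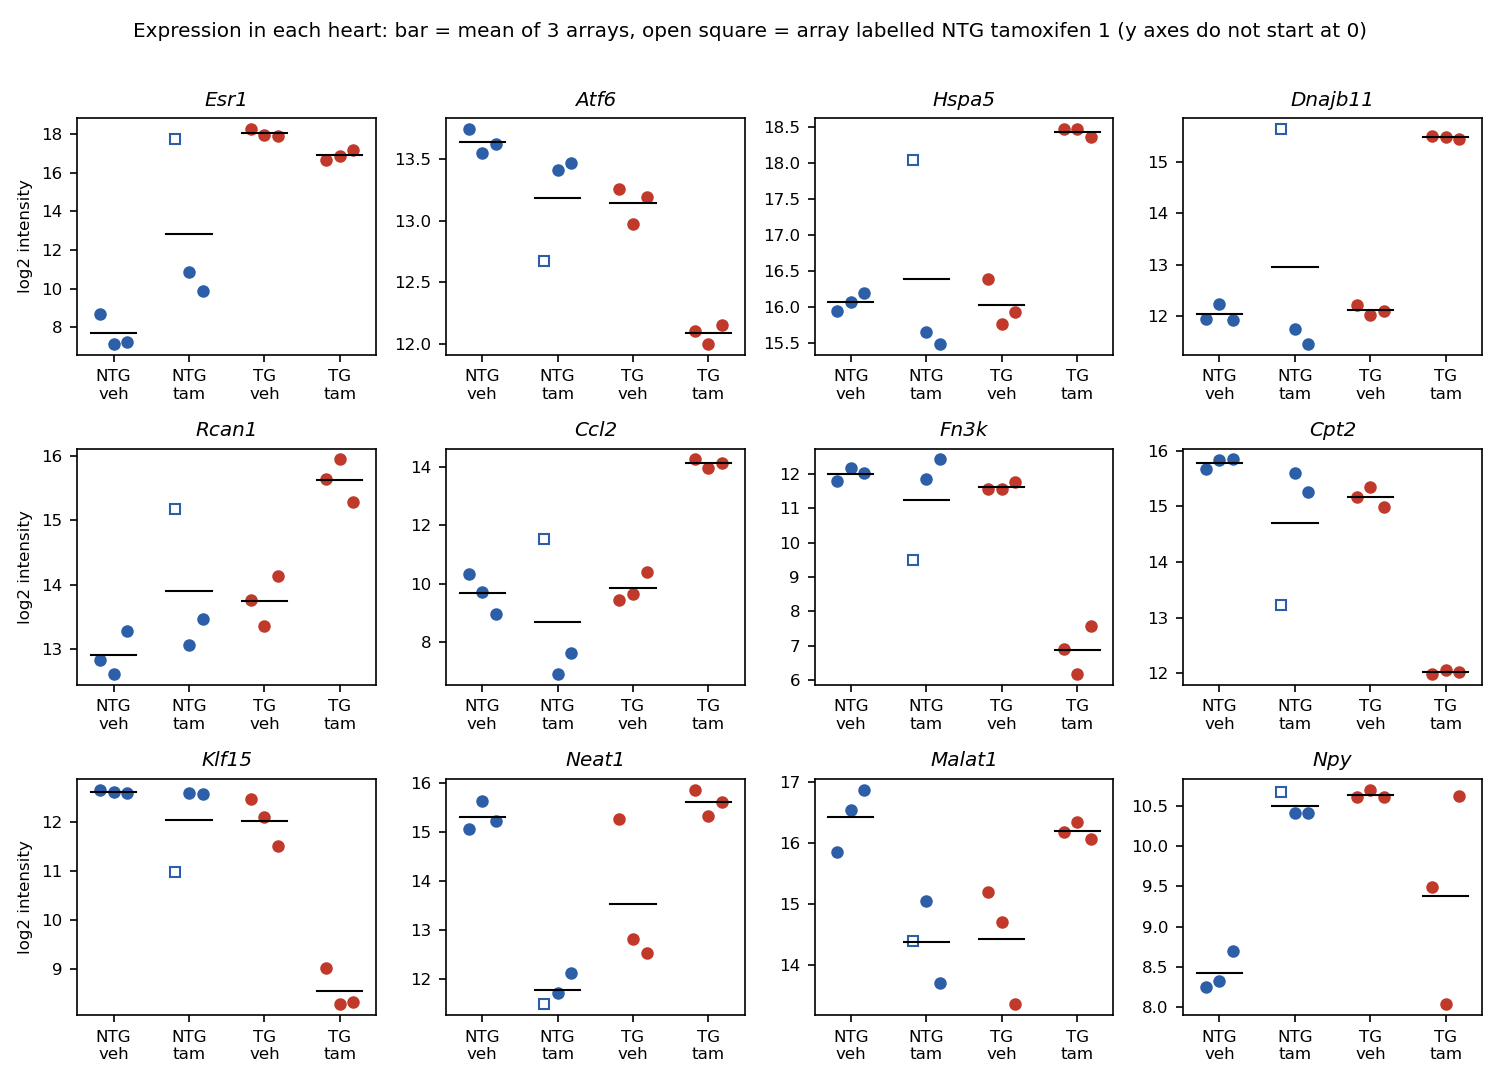
Log2 intensity (y axis, which does not start at 0) of 12 genes on each array, by group (x axis; veh is vehicle, tam is tamoxifen), with a bar at the mean of 3 arrays and an open square for the array labelled NTG tamoxifen 1. For Hspa5, Dnajb11 and Rcan1 the open square lies near the TG tamoxifen points and far from the other NTG tamoxifen points, for Cpt2, Fn3k and Klf15 it lies between the groups, and for Neat1 it lies with its own group.

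A binding element of ATF6 was looked for in the promoters of the genes tested, beside other motifs given below. The ER stress response element (ERSE) is CCAAT, 9 bases of any kind, then CCACG, where NF-Y binds CCAAT and ATF6 or XBP1 binds CCACG. Of the genes tested, 9026 had a RefSeq promoter window (build GRCm38.p6) of 300 bases, 250 before the transcription start and 50 after it. On either strand, 15 of them (0.166%) held the element. Of 1088 genes called higher with 11 arrays that had a window, 10 (0.919%) held it, and of 1010 called lower, 2 (0.198%) did, namely Acacb and Adcy3. All 10 were genes that rose in TG with an NTG effect that missed the threshold: Calr, Canx, Creld2, Derl3, Dnajc3, Ero1b, Hsp90b1, Hspa5, Pdia6 and Syvn1. With 12 arrays 2 of these passed, Ero1b and Pdia6. Of the 2 called lower, Adcy3 passed with 12 arrays and Acacb missed, at adjusted p values of 0.0123 and 0.0731 in limma. Alg12, Pan2 and Spats2l held the element and were not called. The stretches that carry it in 6 of the 10 genes are shown, in the direction of transcription, with the element in capitals and 25 bases on each side.
Hspa5, chr2:34772000-34772068, plus strand: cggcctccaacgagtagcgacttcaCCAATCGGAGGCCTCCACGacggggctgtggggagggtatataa
Dnajc3, chr14:118937802-118937870, plus strand: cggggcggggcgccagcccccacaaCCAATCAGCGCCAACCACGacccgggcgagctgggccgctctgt
Pdia6, chr12:17266466-17266534, plus strand: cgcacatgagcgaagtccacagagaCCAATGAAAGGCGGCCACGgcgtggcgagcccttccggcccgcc
Syvn1, chr19:6046507-6046575, plus strand: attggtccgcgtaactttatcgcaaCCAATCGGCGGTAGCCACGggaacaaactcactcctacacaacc
Derl3, chr10:75893217-75893285, plus strand: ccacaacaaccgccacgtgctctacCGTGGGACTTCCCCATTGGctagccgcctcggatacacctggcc
Creld2, chr15:88819495-88819563, plus strand: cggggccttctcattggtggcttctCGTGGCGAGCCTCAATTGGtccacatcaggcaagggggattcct

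In Hspa5, Dnajc3, Pdia6 and Syvn1 the element reads forward, so CCAAT comes first. In Derl3 and Creld2 it lies on the opposite strand and is read here as its reverse complement, beginning with CGTGG. The end of the element lay 47 bases before the start in Hspa5, 87 in Dnajc3, 80 in Pdia6 and 26 in Syvn1. Creld2 and Alg12 are transcribed away from each other and share 1 copy of the element. Creld2, an ER protein that binds unfolded clients, had an interaction of 2.74 ± 0.37 (adjusted p = 0.00138) with 11 arrays and 1.61 (adjusted p = 0.287) with 12. Alg12, a mannosyltransferase, had one of -0.51 ± 0.42 (adjusted p = 0.397) with 11 arrays and -0.72 (adjusted p = 0.254) with 12. The estrogen response element, GGTCA, 3 bases and TGACC, was present in 2 of the 9026 genes with a window and in 0 of those called with 11 arrays. ERSE-II, ATTGG, 1 base and CCACG, was in 8 of the 9026 (0.0886%), 2 genes called higher (0.184%) and 0 called lower. The motif TGACGTG (UPRE) was in 295 (3.27%), 44 (4.04%) and 31 (3.07%) in the same order. The motif of TGATG, 1 base and AA (CARE) was in 258 (2.86%), 41 (3.77%) and 30 (2.97%). A match is a description of these letters in this window and not evidence of binding.

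Fatty acid oxidation, the main source of ATP in the adult heart, had the largest share of lower calls among the 28 pathway lists. Of 29 genes tested, 21 were called lower and 0 higher with 11 arrays, beside 11% of all genes tested called lower. With 12 arrays 9 were called lower and 0 higher, beside 6.76% of all genes tested called lower. The median interaction was -1.20 with 11 arrays and -0.86 with 12. The TG effect had a median of -1.28 and the NTG effect one of -0.15. Median centring left 15 and 3 called lower, and the beta-actin covariate left 1 with 11 arrays, Cpt2. Adipocyte markers moved with these genes: 3 of the 4 tested were called lower with either set, beside the same shares of all genes. In TG hearts their summed intensity was 12341 to 14184 with tamoxifen and 34716 to 40655 with vehicle. In NTG hearts it was 22724 to 47520 with tamoxifen and 36468 to 43531 with vehicle. The sum of the ventricular markers was also lowest in TG tamoxifen, at 2423080 to 2492830 against 2721360 or more elsewhere. The part of either in the result was not tested.

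Cpt2, the inner carnitine palmitoyltransferase that hands long-chain acyl groups to the matrix, read 11.99, 12.07 and 12.02 in TG tamoxifen and 15.17, 15.36 and 14.99 in TG vehicle. It read 15.61 and 15.25 in NTG tamoxifen 2 and 3, 13.22 on the array labelled NTG tamoxifen 1, and 15.67, 15.83 and 15.85 in NTG vehicle. TG tamoxifen lay more than 1 log2 unit below every other array. The interaction was -2.80 ± 0.23 (6.94-fold, adjusted p = 0.000164) with 11 arrays and -2.06 ± 0.65 (adjusted p = 0.0552) with 12. Mlycd, which removes the malonyl-CoA that inhibits entry of fatty acids, passed with both sets, at -2.49 ± 0.27 (adjusted p = 0.000587) and -2.03 ± 0.47 (adjusted p = 0.0198). Acaa2, the last enzyme of each round of oxidation, also passed with both, at -1.94 ± 0.22 (adjusted p = 0.000748) and -1.64 ± 0.33 (adjusted p = 0.0137).

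The transcription factors and coactivators that set the level of these enzymes were a list of 20, with 7 called lower and 0 higher with 11 arrays and 4 lower with 12. With the beta-actin covariate 0 passed. Among all genes tested, 11% were called lower with 11 arrays and 6.76% with 12. Ppara, the fatty acid receptor that switches on oxidation genes, read 11.73, 11.84 and 11.96 in TG tamoxifen, 13.43, 13.84 and 13.24 in TG vehicle, 14.87 and 14.71 in NTG tamoxifen 2 and 3, and 14.02, 13.63 and 14.03 in NTG vehicle. It fell in TG and rose in NTG, by -1.66 and 0.89, and its interaction was -2.55 ± 0.28 (adjusted p = 0.00067) with 11 arrays and -2.24 ± 0.37 (adjusted p = 0.0106) with 12. Klf15, a regulator of cardiac lipid use, read 9.03, 8.28 and 8.32 in TG tamoxifen, against 11.50 or more on every other array but the one labelled NTG tamoxifen 1, which read 10.97. Its interaction was -3.44 ± 0.39 (10.8-fold, adjusted p = 0.000723) and -2.90 ± 0.57 (adjusted p = 0.0131). Rxrg, a partner receptor of PPARs, gave -2.43 ± 0.26 (adjusted p = 0.00052) with 11 arrays and -2.02 ± 0.42 (adjusted p = 0.0148) with 12.

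Other routes of energy supply moved less uniformly. Over all genes tested, 11% were called lower and 11.8% higher with 11 arrays, and 6.76% and 7.5% with 12. Of 44 oxidative phosphorylation genes, 14 were called lower and 1 higher with 11 arrays and 9 lower and 1 higher with 12, with a list median of -0.36; the beta-actin covariate left 0, and median centring left 9 lower with 11 arrays and 2 with 12. Ndufs8 and Ndufs3, core subunits of complex I, gave -1.62 ± 0.22 and -1.36 ± 0.23 with 11 arrays and passed with both sets. Glucose uptake and glycolysis had 6 of 22 lower and 4 higher with 11 arrays, 6 and 2 with 12, and 0 with the beta-actin covariate, and its median of -0.16 turned to 0.12 under median centring. Its lower calls included Pfkm, the muscle phosphofructokinase, at -2.24 ± 0.24 (adjusted p = 0.000582), and Slc2a4, the insulin-regulated glucose transporter, at -1.36 ± 0.23 (adjusted p = 0.00367) with 11 arrays, and both passed with 12. Of 23 genes of the tricarboxylic acid cycle and pyruvate entry 4 were called higher and 3 lower with 11 arrays, near the 11.8% and 11% of all genes tested, 2 and 1 with 12, and 0 with the beta-actin covariate. Pdha1, a subunit of pyruvate dehydrogenase, was among the higher, at 1.59 ± 0.40 (adjusted p = 0.0194) with 11 arrays and 1.47 (adjusted p = 0.0298) with 12, but through a fall in NTG (-1.29) with a TG effect of 0.30.

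Several of the largest negative values lay outside these lists. Fn3k, a kinase that removes sugars bound to proteins, read 6.91, 6.17 and 7.57 in TG tamoxifen, 11.55, 11.56 and 11.77 in TG vehicle, 11.84 and 12.42 in NTG tamoxifen 2 and 3, and 11.78, 12.17 and 12.02 in NTG vehicle. The array labelled NTG tamoxifen 1 read 9.48, between the groups. The interaction was -4.88 ± 0.46 (29.5-fold, adjusted p = 0.000254) with 11 arrays and -4.00 ± 0.85 (adjusted p = 0.0154) with 12. Slc25a34, a mitochondrial carrier, gave -4.64 ± 0.34 (adjusted p = 0.000105), Ttll1, a tubulin-modifying ligase, -4.45 ± 0.31 (adjusted p = 7.96e-05), and Lrtm1, a leucine-rich repeat membrane protein, -3.83 ± 0.27 (adjusted p = 7.96e-05). Of these 3, Lrtm1 passed with 12 arrays, at -3.30 ± 0.51 (adjusted p = 0.00888). Ces1d, a carboxylesterase, gave -2.95 ± 0.23 (adjusted p = 0.000139) with 11 arrays and missed with 12 (adjusted p = 0.0616). Others among the 10 largest falls of either set were Mybpc2, a myosin-binding protein of fast skeletal muscle, at -4.06 ± 1.10 (adjusted p = 0.0245) with 11 arrays and -3.74 with 12, and Smco1, a membrane protein, at -3.97 ± 0.50 (adjusted p = 0.00122) and -3.29. Ccdc189 gave -4.39 ± 0.91 (adjusted p = 0.0084) with 11 arrays and missed with 12 (adjusted p = 0.0552). St8sia3, Exoc3l2, Apex2, Hip1r and Poln had values of -3.79, -3.70, -3.29, -3.13 and -2.64 with 11 arrays and passed with both sets. Npy, neuropeptide Y, read 8.25, 8.33 and 8.69 in NTG vehicle and 10.41 to 10.70 in NTG tamoxifen and TG vehicle, while TG tamoxifen spread from 8.04 to 10.62. Its interaction was -3.24 (adjusted p = 0.0121) with 11 arrays and -3.33 (adjusted p = 0.0135) with 12. Gstk1, Gsta4 and Gstm1, glutathione transferases that handle drugs and oxidised lipids, were called lower with both sets, at -2.65 ± 0.21, -2.45 ± 0.34 and -1.55 ± 0.32 with 11 arrays.

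Genes of the contractile apparatus changed in a minority. Of 24 sarcomere and Z-disc genes, 6 were called lower and 2 higher with 11 arrays and 2 each way with 12, and the beta-actin covariate left 0. Over all genes tested 11% were called lower and 11.8% higher with 11 arrays, and 6.76% and 7.5% with 12. Tcap, which caps titin at the Z-disc, gave -1.69 ± 0.28 (adjusted p = 0.00329), Myom1, an M-band protein, -1.33 ± 0.23 (adjusted p = 0.00406), and Lmod2, which lengthens thin filaments, -1.29 ± 0.21 (adjusted p = 0.00292), all with 11 arrays. With 12 arrays all 3 missed, at adjusted p values of 0.182, 0.0601 and 0.387. In the hypertrophy and fetal list 4 of 20 were called higher with 11 arrays and 2 with 12, beside the same shares of all genes. In that list 0 were called lower, and the beta-actin covariate left 1 with 11 arrays. Fhl1, a LIM protein that senses stretch, read 17.96, 17.93 and 17.84 in TG tamoxifen and between 14.84 and 15.84 elsewhere, with 16.53 on the array labelled NTG tamoxifen 1. It gave 2.77 ± 0.19 (adjusted p = 7.96e-05) and 2.21 ± 0.50 (adjusted p = 0.0194), and it passed with the beta-actin covariate and 11 arrays. Nppb, the natriuretic peptide BNP, had an interaction of 1.35 ± 0.47 (adjusted p = 0.064) with 11 arrays.

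**Figure D3:**
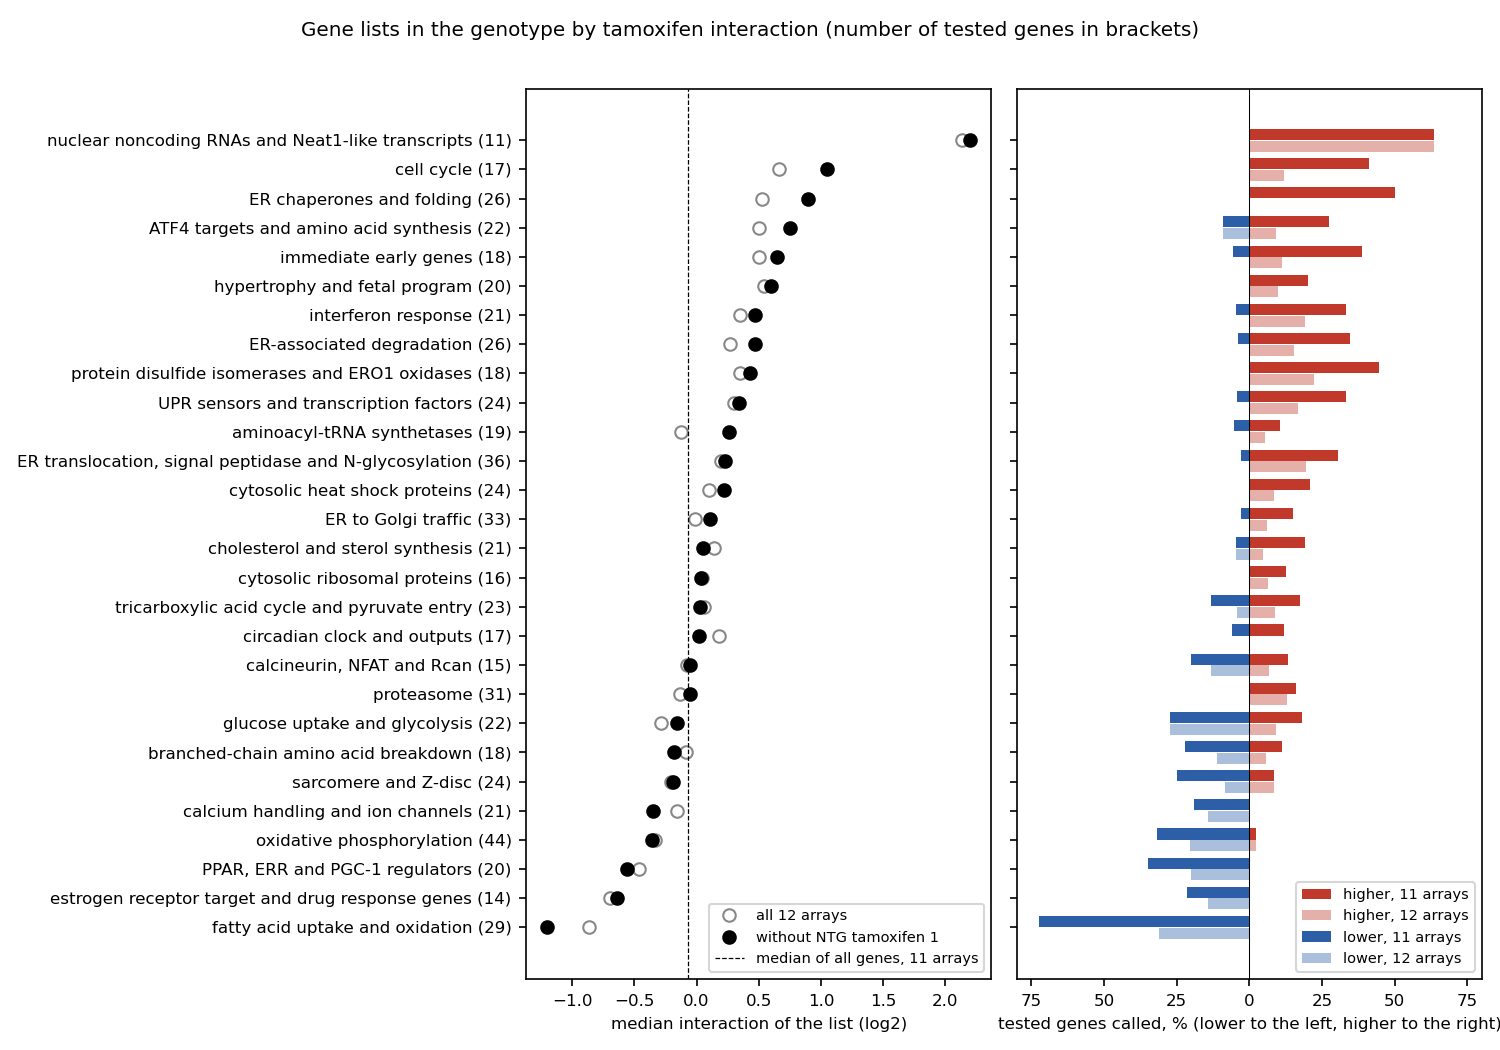
The 28 pathway lists, with the number of tested genes in brackets: on the left the median interaction of each list (log2), open circles with 12 arrays and filled circles with 11, and a dashed line at the median of all genes; on the right the percentage of each list called higher (to the right) or lower (to the left). Nuclear noncoding RNAs have the highest median with both sets of arrays (2.13 and 2.20) and fatty acid oxidation the lowest (-0.86 and -1.20), and the ER chaperones have calls with 11 arrays alone (13 of 26).

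Among secreted proteins of inflammation, Ccl2 had the largest interaction of all genes named with 11 arrays, while Neat1, described below, was larger with 12. Ccl2, the chemokine that recruits monocytes, read 14.25, 13.95 and 14.13 in TG tamoxifen, 9.46, 9.64 and 10.41 in TG vehicle, 6.92 and 7.63 in NTG tamoxifen 2 and 3, and 10.33, 9.71 and 8.97 in NTG vehicle. TG tamoxifen lay above and NTG tamoxifen 2 and 3 below all others, and the array labelled NTG tamoxifen 1 read 11.51. The interaction was 6.67 ± 0.53 (102-fold, adjusted p = 0.000139) with 11 arrays and 5.26 ± 1.27 (adjusted p = 0.0226) with 12, and with 11 arrays it was the sum of a rise of 4.27 in TG and a fall of 2.40 in NTG, both called. Ccl12, a related chemokine, gave 4.45 ± 0.57 (adjusted p = 0.00125) and 3.92 ± 0.68 (adjusted p = 0.0106). Ptx3, a secreted pentraxin of innate immunity, read 13.43, 12.59 and 13.10 in TG tamoxifen and 9.97 or less elsewhere, and gave 4.92 ± 0.87 (adjusted p = 0.00434) and 4.40 ± 0.89 (adjusted p = 0.0138). Socs3, which damps cytokine signalling, gave 2.13 ± 0.38 (adjusted p = 0.00429) with 11 arrays and missed with 12 (adjusted p = 0.0896).

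Some markers of macrophages were called in the same direction as these genes. Of 17 tested, 5 were called higher with 11 arrays and 4 with 12, beside 11.8% and 7.5% of all genes tested, and 0 lower. In TG hearts their summed intensity was 164800 to 232202 with tamoxifen and 92154 to 186186 with vehicle, so the ranges overlapped. In NTG hearts it was 90453 to 97902 with tamoxifen and 100324 to 113565 with vehicle. Lyz2, the lysozyme of myeloid cells and a called member of the list, had an interaction of 2.47 with 11 arrays. It read 16.31, 15.64 and 15.50 in TG tamoxifen and 12.33 to 13.66 in NTG tamoxifen, which compares the genotypes under the drug alone. The lowest intensity of any probe set was 1.02, so no marker was at 0. The part of these cells in the result was not tested. The lists of T and B lymphocytes (2 tested) and neutrophils (4 tested) had 0 and 1 called with 11 arrays, the latter lower.

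Cell cycle genes had 7 of 17 called higher with 11 arrays and 2 with 12, 0 lower, and 0 with the beta-actin covariate. Among all genes tested, 11.8% were called higher with 11 arrays and 7.5% with 12. Tk1, a thymidine kinase of S phase, read 13.06, 12.03 and 13.09 in TG tamoxifen and 7.35 to 9.60 elsewhere, except 12.41 on the array labelled NTG tamoxifen 1. Its interaction was 4.98 ± 0.85 (adjusted p = 0.00384) with 11 arrays and 3.31 ± 1.59 (adjusted p = 0.172) with 12. Ube2c, a ubiquitin-conjugating enzyme of mitotic exit, gave 4.76 ± 1.21 (adjusted p = 0.0193) with 11 arrays and missed with 12 (adjusted p = 0.231), with a TG vehicle group that spread from 6.50 to 10.40. Top2a, the topoisomerase of dividing cells, passed with both sets, at 2.22 ± 0.48 and 2.04 ± 0.46. Cks1b, a cofactor of cyclin-dependent kinases outside that list, passed with both sets too and with the beta-actin covariate, at 3.96 ± 0.32 (adjusted p = 0.000147) with 11 arrays and 3.37 ± 0.58 (adjusted p = 0.0106) with 12.

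Far1, which makes fatty alcohols for ether lipids, read 17.90, 17.89 and 18.07 in TG tamoxifen, 12.61, 11.68 and 13.33 in TG vehicle, and 11.85 to 12.94 in NTG vehicle and NTG tamoxifen 2 and 3, with 16.67 on the array labelled NTG tamoxifen 1. The interaction was 4.67 ± 0.50 (adjusted p = 0.00057) with 11 arrays and 3.37 ± 1.17 (adjusted p = 0.0735) with 12. Polr3k, a subunit of RNA polymerase III, gave 5.11 ± 0.44 (adjusted p = 0.000175) and 3.42 ± 1.46 (adjusted p = 0.129). The sterol synthesis list had 4 of 21 genes called higher and 1 lower with 11 arrays, beside 11.8% and 11% of all genes tested. With 12 arrays it had 1 and 1, beside 7.5% and 6.76%, and with the beta-actin covariate and 11 arrays 1 higher. Its medians were 0.05 with 11 arrays and 0.14 with 12. Srebf1, a factor that switches on lipid synthesis, was the lower call, at -1.70 ± 0.36 (adjusted p = 0.00898) and -1.44 (adjusted p = 0.034). Hmgcs1 and Idi1, enzymes of sterol synthesis, rose in TG by 2.38 and 2.10 and fell in NTG by 1.10 and 1.81 with 11 arrays, and with 12 the interaction of Hmgcs1 passed (adjusted p = 0.0194) and that of Idi1 missed (adjusted p = 0.0511). Mllt3, a chromatin reader, gave 3.74 ± 0.28 (adjusted p = 0.000105), and Gadd45g, a growth arrest gene, 5.08 ± 0.88 (adjusted p = 0.00404) with 11 arrays, and both passed with 12. Ankrd10 and Mcam, an ankyrin repeat protein and an adhesion molecule of vessels, were among the 10 largest with 12 arrays, at 3.88 and 4.98, and passed with 11, at 4.32 and 4.17.

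A different pattern held for nuclear noncoding RNAs, where by the list medians the NTG effect was larger than the TG effect. This was not so for every gene of the list. Of 11 tested, 7 were called higher with either set of arrays and 0 lower. Among all genes tested, 11.8% were called higher with 11 arrays and 7.5% with 12. The list medians were 2.20 with 11 arrays and 2.13 with 12. The median TG effect was 0.75 and the median NTG effect -1.45 with 11 arrays. Neat1, the scaffold of paraspeckles, read 15.07, 15.63 and 15.22 in NTG vehicle and 11.71 and 12.12 in NTG tamoxifen 2 and 3, with 11.48 on the array labelled NTG tamoxifen 1. It read 15.87, 15.33 and 15.61 in TG tamoxifen and 15.27, 12.80 and 12.53 in TG vehicle. The TG vehicle group was thus split, with replicate 1 at the level of TG tamoxifen. The interaction of Neat1 was 5.46 ± 0.87 (44.0-fold, adjusted p = 0.00281) with 11 arrays and 5.61 ± 0.79 (adjusted p = 0.00643) with 12. Leaving the doubtful array out made it slightly smaller, not larger. A further Neat1 probe set above the filter had the opposite sign and did not pass, at -1.06 with 11 arrays and -1.01 with 12.

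Snhg1, a host of small nucleolar RNAs, read 13.59, 13.20 and 13.22 in TG tamoxifen, 11.79, 11.23 and 11.19 in TG vehicle, 10.06, 10.45 and 9.20 in NTG tamoxifen, and 11.63, 11.46 and 11.96 in NTG vehicle. Its interaction was 3.80 ± 0.46 (adjusted p = 0.001) with 11 arrays and 3.72 ± 0.42 (adjusted p = 0.00553) with 12, with no overlap between TG tamoxifen, NTG tamoxifen and the vehicle arrays. Malat1, an abundant nuclear RNA, read 16.18, 16.35 and 16.08 in TG tamoxifen and 15.20, 14.71 and 13.35 in TG vehicle. It read 14.39, 15.06 and 13.70 in NTG tamoxifen and 15.86, 16.55 and 16.88 in NTG vehicle, for an interaction of 3.83 ± 0.72 (adjusted p = 0.00548) with 11 arrays and 3.83 ± 0.65 (adjusted p = 0.0106) with 12. Meg3, an imprinted noncoding RNA, gave 2.20 ± 0.39 (adjusted p = 0.00446) and 2.13 ± 0.36 (adjusted p = 0.0106). Further probe sets of Meg3 above the filter gave 0.495, -0.108 and 0.765 with 11 arrays and did not pass. Those of Snhg1 gave 3.73, 2.55 and 3.13 and passed. With the beta-actin covariate 0 of the 11 passed with either set, and the 2 groups with high levels here, TG tamoxifen and NTG vehicle, each had a higher beta-actin ratio than the other group of their genotype. The part of RNA quality in this pattern was not tested further.

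Markers of vessels had lower sums with tamoxifen in NTG. The summed intensity of 14 endothelial markers ran from 150626 to 194644 in NTG tamoxifen against 258781 to 299259 in NTG vehicle. That of 11 smooth muscle and pericyte markers ran from 148985 to 201639 against 294961 to 347730. In TG the endothelial sum was also lower with tamoxifen, at 196592 to 208575 against 221047 to 253647. The smooth muscle sums overlapped in TG, at 173557 to 222814 with tamoxifen against 199093 to 227870. With 11 arrays the median drug effect over the endothelial markers was -0.39 in TG and -0.20 in NTG. Over the smooth muscle markers it was -0.56 and -0.24. Of the endothelial markers 2 were called higher and 0 lower in the interaction with 11 arrays, and of the smooth muscle markers 1 each way, shares near or below the 11.8% and 11% of all genes tested. Their part in the result was not tested. The list of 21 interferon-induced genes had a median NTG effect of -0.10 and a median TG effect of 0.33 with 11 arrays. In the interaction 7 were called higher and 1 lower with 11 arrays and 4 higher with 12, and the beta-actin covariate left 0. Among all genes tested, 11.8% were called higher and 11% lower with 11 arrays, and 7.5% higher with 12. Ifit2, an interferon-induced inhibitor of translation, read 12.12, 12.04 and 11.71 in TG tamoxifen, 11.22, 9.35 and 10.70 in TG vehicle, 8.22 and 7.43 in NTG tamoxifen 2 and 3, and 11.19, 10.86 and 10.84 in NTG vehicle. On the array labelled NTG tamoxifen 1 it was 10.45, inside the range of TG vehicle. It gave 4.67 ± 0.61 (adjusted p = 0.00125) with 11 arrays and 3.80 ± 0.91 (adjusted p = 0.0219) with 12. Ifit1, of the same family, gave 2.38 ± 0.31 (adjusted p = 0.00125) and 2.26 ± 0.31 (adjusted p = 0.00643). Gbp3, a guanylate-binding protein, fell in NTG by 1.69 with a TG effect of 0.80 that missed the threshold, with 11 arrays, and its interaction passed with both sets.

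Chml, a Rab escort protein, fell in NTG by 4.21 with 11 arrays and by 3.24 with 12. It read 10.14, 10.15 and 10.12 in NTG vehicle and 5.45 and 6.40 in NTG tamoxifen 2 and 3, with 8.85 on the array labelled NTG tamoxifen 1, against 11.17, 10.83 and 10.69 in TG tamoxifen and 10.57, 9.53 and 9.49 in TG vehicle. The interaction was 5.25 ± 0.47 (adjusted p = 0.0002) with 11 arrays and 4.28 ± 0.92 (adjusted p = 0.0159) with 12. Zfp979, a zinc finger protein, fell in NTG by 3.77 and changed in TG by 0.28 with 11 arrays, its interaction passed with both sets, and all 3 NTG tamoxifen arrays, at 6.10, 6.53 and 7.60, lay below every other array. Adam9, a membrane protease, rose in TG by 1.24 and fell in NTG by 1.39, for an interaction of 2.64 ± 0.23 (adjusted p = 0.000169) with 11 arrays and 2.42 ± 0.28 (adjusted p = 0.00553) with 12.

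Few genes rose with tamoxifen in NTG alone, 42 with 11 arrays and 27 with 12. Esr1 was among the 42, with an NTG effect of 2.68, a TG effect of -1.14 and an interaction of -3.82 ± 0.59 (adjusted p = 0.00252) with 11 arrays. Its NTG vehicle readings, given above, lay below the filter level, an intensity of 670. With the array labelled NTG tamoxifen 1 its interaction was -6.26 ± 2.10 (adjusted p = 0.0658). Whether this probe set reads the fusion transcript is not given either. Myl7 and Myl4, myosin light chains of the atrium, also appeared there. Myl7 read 15.12 in NTG tamoxifen 2, 12.21 in NTG tamoxifen 3 and 8.76 on the array labelled NTG tamoxifen 1, against 8.79 to 11.56 in NTG vehicle. The interaction of Myl7 was -3.92 ± 1.24 (adjusted p = 0.0449) and that of Myl4 -3.09 ± 0.70 (adjusted p = 0.0119) with 11 arrays, and both missed with 12, at adjusted p values of 0.391 and 0.265. Of 6 atrial markers tested these were the 2 called, both lower, beside 11% of all genes tested called lower with 11 arrays. The summed intensity of the 6 in NTG hearts was 53512 to 174799 with tamoxifen and 61500 to 104586 with vehicle. In TG hearts it was 90236 to 190914 with tamoxifen and 38422 to 101956 with vehicle. The part of atrial tissue in the 2 values was not tested. Rgs2, a regulator of G protein signalling, rose in NTG by 1.36, with an interaction of -1.74 ± 0.29 (adjusted p = 0.00352) with 11 arrays that missed with 12 (adjusted p = 0.0964).

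The array labelled NTG tamoxifen 1 was placed on a line from the mean of NTG tamoxifen 2 and 3 (position 0) to the mean of TG tamoxifen (position 1), gene by gene. Over the 764 genes that rose in TG its median position was 0.47 (quartiles 0.20 and 0.78), and 352 lay nearer to TG tamoxifen. Over the 1000 that fell in TG its median position was 0.40 (quartiles 0.19 and 0.63), and 379 lay nearer to TG tamoxifen. Over the 163 that fell in NTG the median was 0.18, with 39 nearer to TG tamoxifen. The classes were called on the other 11 arrays, so that NTG tamoxifen 2 and 3 were chosen to lie away from TG tamoxifen, and an array left out of that choice can lie off 0 for this reason alone. The positions are a description of this array, and nothing was tested with them. Esr1, Hspa5, Dnajb11, P4hb and Derl3 read close to TG tamoxifen or TG vehicle on it.

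**Figure D4:**
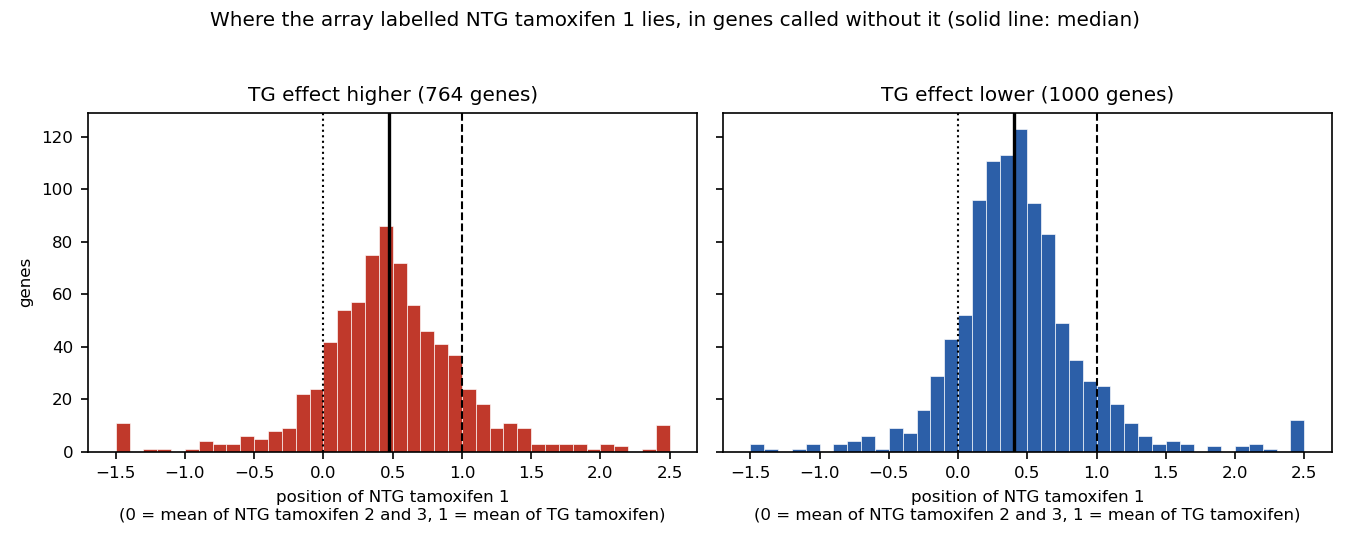
Position of the array labelled NTG tamoxifen 1 in the 764 genes that rose in TG (left) and the 1000 that fell in TG (right), called without it. The x axis runs from the mean of NTG tamoxifen 2 and 3 (0, dotted) to the mean of TG tamoxifen (1, dashed), values beyond the plotted range are counted in the outer bars, the y axis counts genes, and the solid lines mark the medians, 0.47 and 0.40.

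TG tamoxifen stood apart from all other arrays for most of these genes. With 11 arrays it lay above every other array in 667 of the 764 genes that rose in TG and below in 860 of the 1000 that fell in TG, where over all genes tested it lay above in 14.9% and below in 15.4%. The calls themselves need such separation, so these counts describe the classes and do not support them. NTG tamoxifen 2 and 3 lay below all other arrays in 145 of the 163 genes that fell in NTG, against 9.59% of all genes tested. Where a called gene had further probe sets above the filter, 1799 of 2119 such probe sets had the sign of the gene's call with 11 arrays, 759 also passed over all 19278 probe sets tested, and 15 passed in the opposite direction, 1 of Zfp644 and 1 of Nxf1 among them.

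The number of genes called moved more with the control ratios, the labels of single arrays and the filter on dim genes than with scaling or pseudocount. With the Gapdh 3' to 5' ratio as the covariate, an alternative chosen after seeing the data, 0 genes passed with 12 arrays (1612 at an unadjusted p under 0.05) and 340 with 11. The 44 genes that passed with the beta-actin ratio and 11 arrays included 41 of the 2546. Among them were the ER genes Dnajb11, P4hb, Calr, Sdf2l1, Creld2, Derl3, Dnajc3 and Pdia3, the chemokines Ccl2 and Ccl12, Cpt2, Fn3k, Lrtm1, Ttll1 and Fhl1. Hspa5 missed the threshold under that covariate. Without TG vehicle 3 and TG tamoxifen 1, whose label fields conflict or differ, 65 genes passed with 12 arrays and 1445 with 11.

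**Figure D5:**
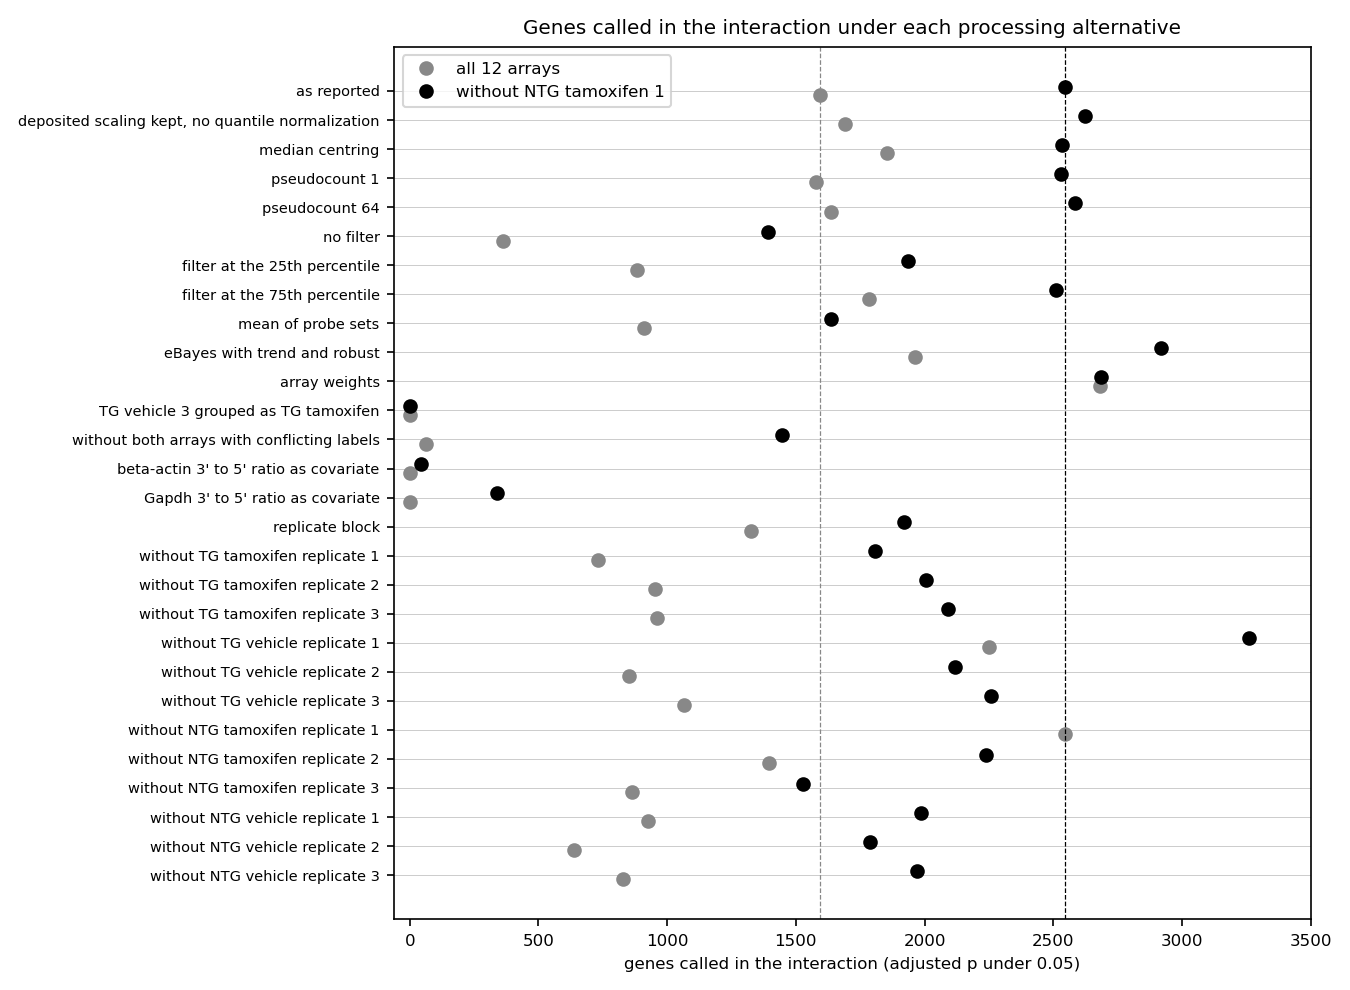
Number of genes called in the interaction (x axis) under each way of processing the data (rows), in grey with all 12 arrays and in black without the array labelled NTG tamoxifen 1; dashed lines mark the counts as reported, 1593 and 2546. Moving TG vehicle 3 to TG tamoxifen leaves 0 with both sets, and the beta-actin ratio as covariate leaves 0 and 44.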

How the data were processed

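Left ventricle RNA of 12 mice was hybridised to Affymetrix Mouse Genome 430 2.0 arrays. Each probe set has 1 linear intensity per array as deposited by the authors; the summarisation software is not given in the sources used here. The number of arrays limits precision. Intensities were taken as log2(value + 16) and quantile normalised, since array medians spanned 0.36 log2 units. Genes were named from the 34945 of 45101 probe sets with 1 symbol, by the brightest, and 11166 of 18193 genes lay above the 50th percentile of intensity. The interaction was tested, two-sided, in 1 fit of 4 group means with limma 3.58.1 in R 4.3.3 (lmFit, eBayes) and Benjamini-Hochberg adjustment; the scripts were tested on simulated data. SE and adjusted p values are from this fit. Probe sets ending in _s_at or _x_at may match several transcripts; among genes named they stand for Acaa2, Ttll1, Hmgcs1, Mllt3, Malat1, Meg3, Socs3, Syvn1, Canx, Adcy3, Alg12, Gstm1, Vldlr, Exoc3l2 and Xbp1. Members and gene lists were chosen with earlier results of these data known. The naming rule took Atf6, Esr1, Hspa5 and Rcan1, the 10 largest values each way in each fit, up to 3 genes per list with 1 in 5 called, and up to 5 per class, not all of which are printed; genes with the promoter element, Malat1, Sdf2l1, Nppb, Lyz2, Myl2, Myl4 and Xbp1 were named after their values were seen.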

Additional observations from a re-analysis of the deposited data

Results flagged for a closer look

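Each result here is a difference between the drug effect in TG and in NTG hearts that passed the test of the difference itself, in limma, with Benjamini-Hochberg adjustment over 11166 genes. There were 1593 such genes with 12 arrays and 2546 with 11. The values are interactions on the log2 scale with 11 arrays, and no explanation of them was weighed. Not all of them passed with 12 arrays. Among chaperones and other genes of the ER they were Hspa5 2.91, Dnajb11 3.79, Dnajc3 3.18, Hsp90b1 2.78, Calr 2.07, Canx 1.01, Creld2 2.74, Sdf2l1 3.63, P4hb 3.21, Pdia3 1.69, Pdia4 2.54, Pdia6 2.21, Ero1b 1.26, Derl3 3.75, Sel1l 1.91, Syvn1 2.31, Vcp 1.94, Gfpt1 2.01, Ssr3 2.29 and Spcs3 1.45. The sensors and factors of the unfolded protein response and the ATF4 targets gave Atf4 3.08, Ddit3 2.76, Eif2ak3 2.33, Xbp1 0.94, Atf6 -0.86, Mthfd2 3.99, Psat1 4.03 and Vldlr -2.00, and the calcineurin genes Rcan1 1.53, Ppp3cc -1.70 and Nfatc1 -1.25. Genes of fatty acid oxidation, its regulators and other energy supply gave Cpt2 -2.80, Mlycd -2.49, Acaa2 -1.94, Acacb -1.79, Ppara -2.55, Klf15 -3.44, Rxrg -2.43, Ndufs8 -1.62, Ndufs3 -1.36, Pfkm -2.24, Slc2a4 -1.36 and Pdha1 1.59. Other genes called lower were Mybpc2 -4.06, Smco1 -3.97, Ccdc189 -4.39, St8sia3 -3.79, Exoc3l2 -3.70, Apex2 -3.29, Hip1r -3.13, Poln -2.64, Npy -3.24, Srebf1 -1.70, Fn3k -4.88, Slc25a34 -4.64, Ttll1 -4.45, Lrtm1 -3.83, Ces1d -2.95, Gstk1 -2.65, Gsta4 -2.45, Gstm1 -1.55 and Adcy3 -1.17, and contractile genes gave Tcap -1.69, Myom1 -1.33 and Lmod2 -1.29. Genes of inflammation, growth, division, lipids and transcription gave Ccl2 6.67, Ccl12 4.45, Ptx3 4.92, Socs3 2.13, Lyz2 2.47, Fhl1 2.77, Gadd45g 5.08, Tk1 4.98, Ube2c 4.76, Top2a 2.22, Cks1b 3.96, Far1 4.67, Polr3k 5.11, Hmgcs1 3.47, Idi1 3.92 and Mllt3 3.74, with Ankrd10 4.32 and Mcam 4.17. Genes in which the NTG arrays carried a large share of the value were Neat1 5.46, Malat1 3.83, Snhg1 3.80, Meg3 2.20, Nxf1 3.77, Ifit2 4.67, Ifit1 2.38, Gbp3 2.49, Chml 5.25, Zfp979 4.05 and Adam9 2.64, and those that rose in NTG Esr1 -3.82, Myl7 -3.92, Myl4 -3.09, Rgs2 -1.74 and Zfp644 -1.72.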

How the results depend on the processing

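Every value under the alternatives is from limma. With 12 arrays, the 1593 calls became 361 with no filter, 884 with the filter at the 25th percentile, 911 with the mean of probe sets, 2682 with array weights, 65 without both arrays with conflicting labels, and 0 with TG vehicle 3 grouped as TG tamoxifen or with either the beta-actin or the Gapdh ratio as covariate. Leaving out 1 array gave 639 (without NTG vehicle 2) to 2546 (without NTG tamoxifen 1), with 730, 953 and 959 without TG tamoxifen 1, 2 or 3, 851 without TG vehicle 2, 864 without NTG tamoxifen 3, 925 without NTG vehicle 1 and 828 without NTG vehicle 3. With 11 arrays, the 2546 calls became 1390 with no filter, 1636 with the mean of probe sets, 1445 without both arrays with conflicting labels, 0 with TG vehicle 3 grouped as TG tamoxifen, 44 with the beta-actin ratio and 340 with the Gapdh ratio. Leaving out 1 further array gave 1529 (without NTG tamoxifen 3) to 3261 (without TG vehicle 1); without NTG tamoxifen 2 or 3 that group has 1 array, which is assumed to vary like the others. No other filter, scaling, pseudocount or eBayes setting tried moved either count by over 1.5 times. The looser filters tested more genes, 18193 with none and 14911 at the 25th percentile, against 11166; the cause of the other moves was not tested. Under the mean of probe sets Nfatc1 reversed to 0.32 with 12 arrays and 0.26 with 11, Zfp644 to 0.50 and 0.43, and Asxl1 to 0.14 with 11; of the 2546 genes called with 11 arrays 2455 kept their sign there. Same-numbered arrays did not deviate together (18 correlations from -0.09 to 0.09), so the numbers are only names; the replicate block gave 1327 calls with 12 arrays and 1920 with 11. Dim genes near the filter have the least precise values. Readings of Chml in NTG tamoxifen and of Fn3k in TG tamoxifen lay below the filter level, so their fold sizes are imprecise.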
